A study of Drosophila melanogaster with 48 samples.

Results

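Transcript levels of the proteasome subunit genes were followed from the egg's maternal RNA supply to the cellular blastoderm in 8 lines of *Drosophila melanogaster*. The members are the protein-coding genes whose symbol begins with Prosalpha or Prosbeta, or with Rpn or Rpt followed by a digit, and they number 48 of the 17481 genes counted. Of these, 32 are the canonical subunits, 14 of the 20S core particle and 18 of the 19S regulatory particle, and 16 are paralogs with an R or T suffix in their symbol. RNA was sequenced from 48 single embryos, 3 for each line and stage. The 4 Raleigh lines (RAL307, RAL357, RAL360 and RAL517) are inbred lines of the Drosophila Genetic Reference Panel from North Carolina, and the 4 Zambia lines (ZI050, ZI094, ZI160 and ZI470) are inbred isofemale lines from Siavonga. All embryos were untreated, from mothers aged 3 to 10 days kept at 25 degrees. Stage 2 embryos were of unknown sex and precede transcription of the zygotic genome, whereas the late stage 5 embryos, at the end of the blastoderm stage, were all male by genotype. A line stands for its population only as 1 inbred line. Its embryos share that background, so that the spread between embryos is not the spread of a population. By the paper, the Raleigh lines were inbred for more generations than the minimum stated for the Zambia lines. How alike the embryos of a line are genetically was not tested and may differ between the populations.

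The proteasome degrades proteins that carry ubiquitin chains. Its core particle is a barrel of stacked rings, in which the outer alpha rings gate the entry and the inner beta rings carry the proteolytic sites. The regulatory particle caps the barrel: its base holds a ring of ATPases (Rpt proteins) that unfold and thread the substrate, with non-ATPase subunits that dock ubiquitin receptors, and its lid removes the ubiquitin chain. In the early embryo, maternal RNAs are degraded while the zygotic genome takes over, and a subunit transcript at stage 5 can come from either source, which these data do not separate.

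Totals were between 25090803 and 30783589 counts per embryo, except in RAL360 replicate 3 at stage 5, with 340746 counts. In that embryo the canonical subunit genes had 9 to 170 counts each, while every other embryo had at least 696 for each gene. The stage labels were borne out by marker genes: the summed level of 4 maternal markers (osk, bcd, nanos and gcl) was 1837 to 2818 CPM (reads of a gene per library, each library brought to the same total) at stage 2 and 34.6 to 116 CPM at stage 5, and that of 5 zygotic markers (ftz, eve, sna, twi and zen) was 1.12 to 5.23 CPM and 1025 to 1439 CPM. The 4 follicle and eggshell markers (Cp36, Cp38, Vm26Ab and Yp1) summed to at most 0.187 CPM. The 6 testis markers (dj, Mst87F, Mst84Da, Mst84Db, can and bam) summed to 25.9 to 111 CPM at stage 2 and 0 to 12.1 CPM at stage 5, of which the 5 without bam made at most 0.0956 CPM and 0.515 CPM. The embryo ZI470 replicate 1 at stage 2 stood apart from its line. Some results that rest on it or on the shallow embryo are also given without them, while line means include them unless stated. All levels below are CPM with edgeR's TMM scaling, which sets the libraries to a common scale by the bulk of genes, and adjusted p-values are from edgeR's quasi-likelihood test with Benjamini-Hochberg adjustment over all genes tested, with a threshold of 0.01.

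The first question was how subunit transcripts changed between the maternal and the zygotic stage. Core particle genes rose and regulatory particle genes fell, with few exceptions. Of the 14 core genes, 13 were higher at stage 5, by 0.20 to 1.12 on the log2 scale, and Prosalpha3 was lower. Of the 18 regulatory genes, 15 were lower, by 0.87 to 2.51, and Rpt4, Rpn12 and Rpn6 were higher. All 36 members that passed the filter on low counts passed the test, but so did 92.1% of the 10193 genes tested, with 54.6% called higher and 37.4% called lower, so the size of a change says more than the call. The median change was 0.65 for the core genes and -1.49 for the regulatory genes, beside 0.62 for all genes tested. Relative to the typical gene, therefore, the median core gene was near the middle and the median regulatory gene far below it. Another scaling moved the all-gene median between 0.37 (total counts) and 0.79 (DESeq2's size factors), while the distance between the core and the regulatory medians was 2.1 to 2.14 under every scaling and filter tried. In bulk RNA of whole embryos, fewer cells with a transcript and less of it per cell cannot be told apart.

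**Figure D1:**
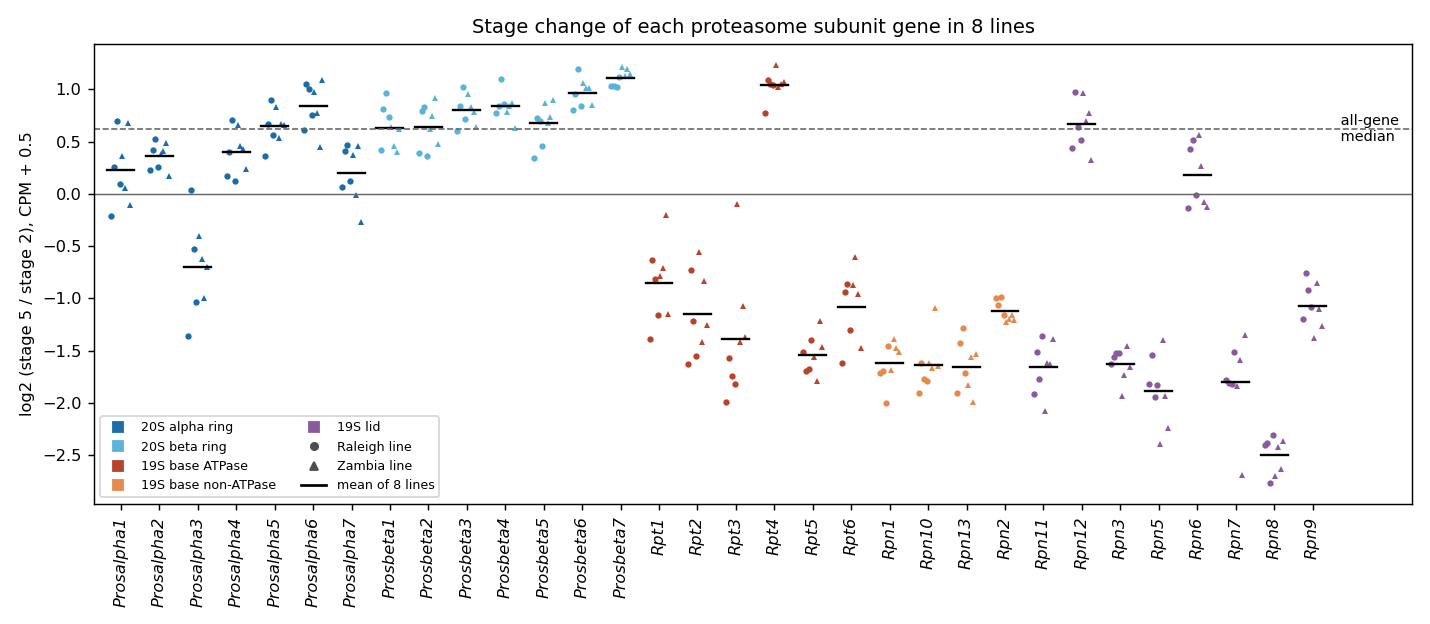
Log2 ratio of the stage 5 to the stage 2 level (CPM + 0.5) for each of the 32 canonical subunit genes, 1 point for each line and a bar for the mean of 8 lines, coloured by place in the complex. The dashed line marks the median change of all genes tested, 0.62. The means of the 14 core genes lie on both sides of that line, from 0.20 (Prosalpha7) to 1.11 (Prosbeta7), apart from Prosalpha3 at -0.70. Of the 18 regulatory genes, 15 lie below 0 in every line.

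The beta ring rose as a block. All 7 genes were higher in all 8 lines, with fold changes from 0.63 to 1.12 on the log2 scale. Prosbeta7, a structural subunit of the ring, had 172, 208 and 232 CPM (lowest, median and highest of 24 embryos) at stage 2 and 319, 456 and 528 CPM at stage 5. No stage 2 embryo reached any stage 5 embryo, and its change of 1.12 ± 0.03 (SE, adjusted p = 8.95e-30) was the highest of the 32 canonical genes and the most even among lines, from 1.02 to 1.21. Prosbeta6 followed with 0.97 ± 0.03, from 171 to 235 CPM at stage 2 and from 316 to 505 CPM at stage 5, again without overlap.

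The 3 beta subunits that carry the proteolytic sites are Prosbeta1 (caspase-like), Prosbeta2 (trypsin-like) and Prosbeta5 (chymotrypsin-like). Prosbeta1 had 124, 150 and 168 CPM (lowest, median and highest embryo) at stage 2 and 163, 227 and 350 CPM at stage 5. Prosbeta2 had 167, 194 and 234 CPM and then 207, 303 and 375 CPM. Prosbeta5 had 183, 212 and 241 CPM and then 233, 330 and 436 CPM. The lowest stage 5 embryos reached into the range of stage 2 for each of them, yet every line mean rose. The changes were 0.63 ± 0.04, 0.64 ± 0.03 and 0.68 ± 0.04 on the log2 scale (SE, adjusted p at most 2.17e-19), so that the proteolytic subunits moved by nearly the same amount, close to the all-gene median.

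Line means show how even the maternal supply of these 3 genes was. Prosbeta1 at stage 2 averaged 146 ± 7.19 CPM in RAL307, 155 ± 11.6 in RAL357, 162 ± 4.58 in RAL360, 154 ± 11.8 in RAL517, 161 ± 1.57 in ZI050, 128 ± 3.14 in ZI094, 141 ± 7.97 in ZI160 and 149 ± 6.84 in ZI470 (SD, n = 3 throughout). At stage 5 it was 195 ± 4.47 in RAL307, 272 ± 35.4 in RAL357, 316 ± 38.4 in RAL360, 257 ± 34.8 in RAL517, 251 ± 29.9 in ZI050, 176 ± 13.7 in ZI094, 187 ± 14.6 in ZI160 and 229 ± 27.2 in ZI470. ZI094 was lowest at both stages. Prosbeta2 at stage 2 lay between 171 ± 5.43 CPM in ZI094 and 214 ± 20.3 in RAL357, with 195 ± 2.46 in RAL307, 191 ± 9.19 in RAL360, 191 ± 9.73 in RAL517, 201 ± 7.18 in ZI050, 184 ± 8.65 in ZI160 and 204 ± 9.18 in ZI470. At stage 5 it lay between 246 ± 37.9 CPM in RAL517 and 371 ± 4.62 in RAL357, with 255 ± 17.9 in RAL307, 339 ± 29.7 in RAL360, 310 ± 20.2 in ZI050, 287 ± 16.4 in ZI094, 349 ± 14.0 in ZI160 and 283 ± 26.6 in ZI470. For Prosbeta2 the order of lines was not kept, since RAL517 and RAL307 were lowest only at stage 5. Prosbeta5 at stage 2 lay between 185 ± 1.78 CPM in ZI094 and 232 ± 13.2 in RAL357, with 212 ± 5.51 in RAL307, 217 ± 7.90 in RAL360, 210 ± 5.70 in RAL517, 220 ± 8.96 in ZI050, 210 ± 12 in ZI160 and 201 ± 12.1 in ZI470. At stage 5 it lay between 268 ± 14.8 CPM in RAL307 and 401 ± 32 in ZI050, with 385 ± 25.9 in RAL357, 352 ± 58.4 in RAL360, 290 ± 49.1 in RAL517, 297 ± 20.9 in ZI094, 349 ± 34.1 in ZI160 and 376 ± 57.1 in ZI470.

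The alpha ring was less uniform. Prosalpha6 (0.84 ± 0.03), Prosalpha5 (0.65 ± 0.03), Prosalpha4 (0.40 ± 0.04) and Prosalpha2 (0.36 ± 0.04) rose in all 8 lines. With the embryos of each line summed, Prosalpha4 was 0.197 and Prosalpha2 0.155, and neither was past the threshold. Prosalpha1 (0.22 ± 0.04) and Prosalpha7 (0.20 ± 0.03) rose in 6 of 8 lines, by less than the all-gene median. With total counts as the scale they turned to -0.03 and -0.05, and with RAL357 left out their adjusted p-values were 0.015 and 0.041, so their direction is not settled. Prosalpha3 was the exception of the ring: it had 178, 208 and 257 CPM (lowest, median and highest embryo) at stage 2 and 74.8, 122 and 300 CPM at stage 5. Its stage 5 embryos spread over a wide range that overlapped stage 2. RAL357 had 196, 300 and 230 CPM, and RAL307 had 91.9, 74.8 and 85.5 CPM. The change was -0.73 ± 0.06 (adjusted p = 5.73e-14), with lines from -1.37 (RAL307) to 0.04 (RAL357).

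In the base, 5 of the 6 ATPase genes fell and 1 rose. Rpt5 (-1.55 ± 0.03), Rpt3 (-1.42 ± 0.04), Rpt2 (-1.18 ± 0.05), Rpt6 (-1.10 ± 0.06) and Rpt1 (-0.87 ± 0.04) fell on the log2 scale, each in all 8 lines. Rpt4, whose product sits in the same ring, had 161, 196 and 223 CPM (lowest, median and highest embryo) at stage 2 and 316, 410 and 514 CPM at stage 5. These groups did not overlap, all 8 lines rose, and the change of 1.04 ± 0.02 (adjusted p = 1.44e-32) placed Rpt4 among the beta ring genes rather than its own ring. Rpt4 lies on the X at 6289470 to 6291245, and its exons overlap those of wuho on the opposite strand by 93 bases. The strand setting of the counting is not given in the sources used here, so reads of wuho in that stretch cannot be told apart from those of Rpt4.

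The 4 non-ATPase genes of the base fell in all lines. They were Rpn10 (-1.68 ± 0.05) and Rpn13 (-1.66 ± 0.04), both ubiquitin receptors, Rpn1 (-1.63 ± 0.04), the docking site of shuttle factors, and Rpn2 (-1.14 ± 0.04), a scaffold. Rpn10 had 172, 204 and 244 CPM (lowest, median and highest embryo) at stage 2 and 38.9, 65.4 and 105 CPM at stage 5, without overlap. At stage 2 it averaged 223 ± 5.44 CPM in RAL307, 211 ± 18.8 in RAL357, 198 ± 11.1 in RAL360, 198 ± 7.13 in RAL517, 241 ± 2.80 in ZI050, 198 ± 11 in ZI094, 207 ± 14.8 in ZI160 and 200 ± 35.5 in ZI470 (SD, n = 3). At stage 5 the means were 59.1 ± 3.6 CPM in RAL307, 68.2 ± 8.88 in RAL357, 57.6 ± 24.1 in RAL360, 56.7 ± 7.78 in RAL517, 78.1 ± 16.3 in ZI050, 62.1 ± 8.47 in ZI094, 97.1 ± 7.22 in ZI160 and 63.2 ± 7.34 in ZI470. ZI160 kept the most Rpn10, with a change of -1.09, beside -1.91 in RAL307. Without its shallow embryo, RAL360 averaged 44.0 CPM at stage 5, below every other line.

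The lid held the steepest falls and a pair of exceptions. The 3 largest falls of all members were Rpn8 (-2.51 ± 0.04, adjusted p = 2.31e-39), Rpn5 (-1.90 ± 0.04, adjusted p = 8.55e-36) and Rpn7 (-1.84 ± 0.04, adjusted p = 9.84e-33). Rpn8 is the inactive partner of the deubiquitinase Rpn11, and Rpn5 and Rpn7 are scaffold subunits. Rpn8 had 189, 224 and 255 CPM (lowest, median and highest embryo) at stage 2 and 26.3, 41.1 and 50.0 CPM at stage 5. Rpn5 had 337, 364 and 442 CPM and then 73.5, 98.4 and 141 CPM. Rpn7 had 138, 183 and 259 CPM and then 30.0, 51.2 and 67.3 CPM. For each of the 3 genes every stage 5 embryo was below every stage 2 embryo.

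Rpn11, which cuts ubiquitin chains off the substrate, fell by 1.66 ± 0.05 (adjusted p = 2.17e-27), from 134, 204 and 253 CPM (lowest, median and highest embryo) to 46.8, 62.7 and 80.1 CPM. At stage 2 it averaged 237 ± 11.5 CPM in RAL307, 186 ± 36.4 in RAL357, 180 ± 23.2 in RAL360, 188 ± 20.7 in RAL517, 243 ± 9.39 in ZI050, 209 ± 10.8 in ZI094, 211 ± 24.7 in ZI160 and 171 ± 55.6 in ZI470 (SD, n = 3). At stage 5 the means were 62.4 ± 0.937 CPM in RAL307, 64.8 ± 14.4 in RAL357, 52.3 ± 4.93 in RAL360, 73.0 ± 3.69 in RAL517, 57.2 ± 4.12 in ZI050, 67.5 ± 6.97 in ZI094, 67.8 ± 5.13 in ZI160 and 64.9 ± 6.65 in ZI470. Without replicate 1, ZI470 averaged 139 CPM of Rpn11 at stage 2. Rpn3 (-1.65 ± 0.04) and Rpn9 (-1.08 ± 0.03) fell too.

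Rpn12 and Rpn6 went the other way within the lid. Rpn12 had 133, 160 and 179 CPM (lowest, median and highest embryo) at stage 2 and 179, 244 and 406 CPM at stage 5, a rise of 0.66 ± 0.05 (adjusted p = 1.10e-16) seen in all 8 lines. Rpn6, a scaffold subunit that clamps lid and core together, had 251, 289 and 324 CPM and then 238, 310 and 516 CPM. Its rise of 0.17 ± 0.03 was seen in 4 of 8 lines and became -0.08 with total counts as the scale and -0.04 with the embryos of each line summed. Rpn6 therefore was near level between the stages on these scales, while the other 6 lid genes lost more than 1 log2 unit.

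Within the canonical set, 20 of 32 genes had no overlap between the 24 embryos of each stage, 14 of them regulatory and 6 core, beside 43.3% of all genes tested. A fall of more than 2-fold was called for 14 of the 18 regulatory genes and for none of the 14 core genes, beside 25.6% of all genes tested. The regulatory genes have longer exons in all (995 to 3412 bases, against 815 to 1215 bases for the core genes). Within the regulatory particle the exon length and the mean stage change had a Spearman correlation of -0.02 over 18 genes, and within the core particle 0.05 over 14 genes. Across all 32 genes it was -0.63, and the part of length in the difference between the particles was not tested. The points share their libraries, so no test was made.

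Dividing by exon length allows levels to be compared between genes. At stage 2 the 32 canonical genes lay between 106 (Rpn9) and 233 (Prosalpha2) CPM per kb of exon as means of 8 lines, a span of 2.19-fold. At stage 5 they lay between 25.7 (Rpn8) and 421 (Prosbeta6) CPM per kb, a span of 16.4-fold. The core genes had a median of 200.1 CPM per kb at stage 2 and 299 at stage 5. The regulatory genes had a median of 146 CPM per kb at stage 2 and 53.2 at stage 5, while Rpn6, Rpn12 and Rpt4 reached 171, 257 and 278 CPM per kb there. Rpt4 thus went from one of the lower levels in the regulatory particle at stage 2 (134 CPM per kb) to the highest at stage 5. These per-length levels use 1 union of annotated exons for each gene, whatever isoform an embryo used.

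**Figure D2:**
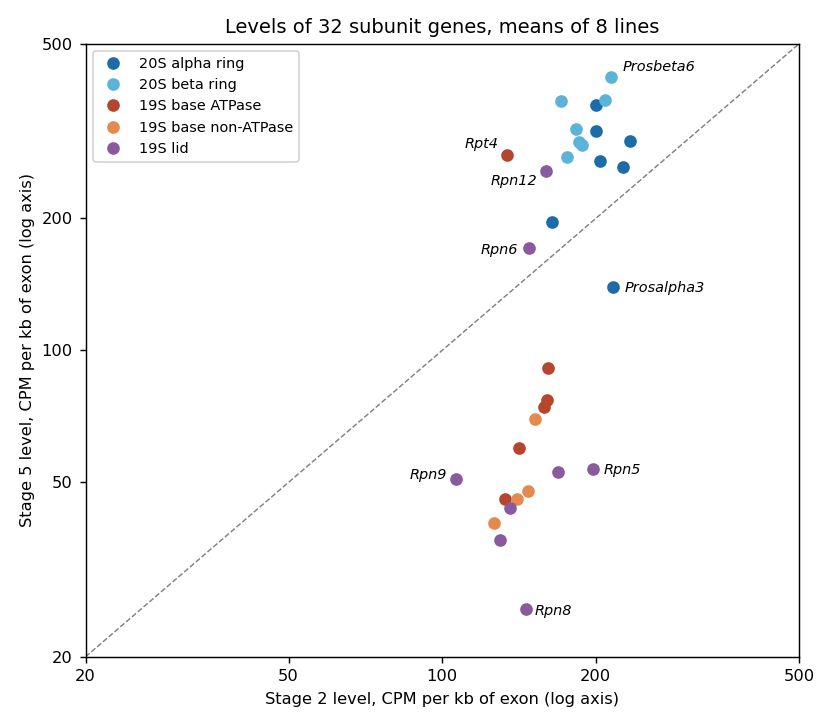
Level of each canonical subunit gene at stage 2 (horizontal) and stage 5 (vertical) in CPM per kb of exon on log axes, as means of 8 lines, coloured by place in the complex, with the dashed line at equal levels. The genes lie between 106 and 233 at stage 2 and spread from 25.7 to 421 at stage 5, with 15 regulatory genes and Prosalpha3 below the line.

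Summed over the 14 core and the 18 regulatory genes, transcripts of the particles were near parity in every stage 2 embryo. The ratio of the summed core level to the summed regulatory level, both in CPM per kb, was 0.98, 1.03 and 1.14 (lowest, median and highest of 24 embryos) at stage 2. At stage 5 it was 2.30, 2.77 and 3.55, and the stages did not overlap. The shallow embryo of RAL360 did not set this range, which was 2.30 to 3.55 in the other 23 embryos too. A ratio within an embryo does not depend on how libraries are scaled. Line means of the ratio were 1.05 ± 0.03 at stage 2 and 2.77 ± 0.18 at stage 5 (SD, n = 8 lines), from 2.58 in ZI094 to 3.16 in RAL360. The embryos of RAL360 had 3.55, 3.31 and, in the shallow embryo, 2.62. The summed core level rose from 2768 ± 159 to 4200 ± 508 CPM per kb, and the summed regulatory level went from 2645 ± 144 to 1522 ± 192 CPM per kb. Without division by length the ratios were 0.60 and 1.7, so parity at stage 2 holds only per length, but the increase does not depend on it. Parity also holds only for sums over unequal numbers of genes. By gene, the stage 2 median was 200.1 CPM per kb for the core and 146 for the regulatory particle. RNA levels do not give protein levels, which were not measured.

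**Figure D3:**
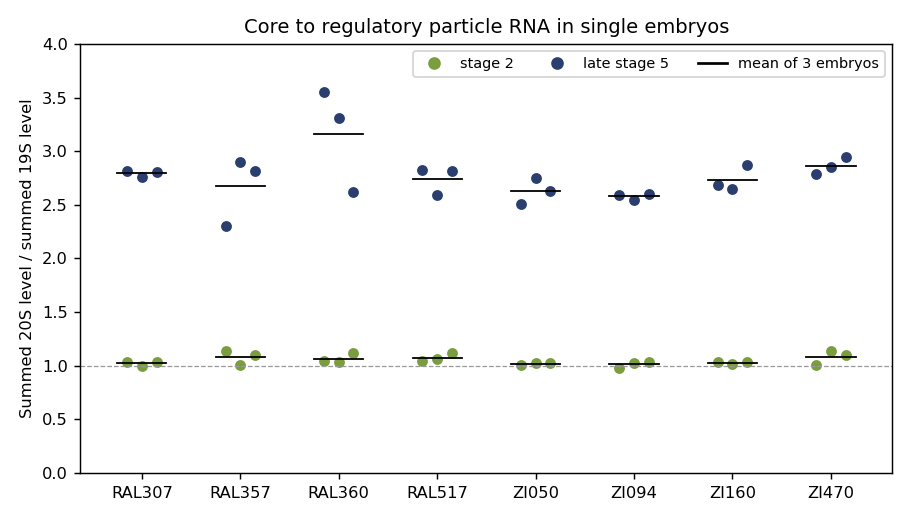
Ratio of the summed level of the 14 core genes to that of the 18 regulatory genes (CPM per kb of exon) in each of 48 embryos by line, with bars for the mean of 3 embryos. The stage 2 embryos lie between 0.98 and 1.14, and the stage 5 embryos between 2.30 and 3.55, in every line above those of stage 2.

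The spread among subunits was also higher in the embryos of stage 5 than in the separate embryos of stage 2. The SD of the log2 level per kb over the 32 canonical genes was 0.26 to 0.37 in stage 2 embryos and 1.20 to 1.58 in stage 5 embryos. Within the core genes it was 0.13 to 0.19 at stage 2 and 0.28 to 0.61 at stage 5. Within the regulatory genes it was 0.19 to 0.29 and 0.82 to 1.17. Maternal subunit transcripts thus lay within a narrow band of levels. In every stage 5 embryo the spread within each particle was above that of all stage 2 embryos, and far more so for the regulatory genes. In some stage 5 embryos, such as RAL357 embryo b (0.28), the core genes were no more spread than the 32 genes at stage 2.

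The next question was whether lines differed in these changes. The stage change differed among the 8 lines for 18 of the 32 canonical genes and for 20 of the 36 members tested, beside 46.1% of all genes tested. By particle it was 6 of 14 core and 12 of 18 regulatory genes. Rpt3 varied most among the canonical genes (adjusted p = 7.12e-11), with line values from -1.99 in RAL307 to -0.10 in ZI050. The low end depends on the shallow embryo. Without it RAL360 averaged 50.4 CPM of Rpt3 at stage 5, below the 53.8 CPM of RAL307. Prosalpha3 spanned 1.40 log2 units, Rpn7 1.34 (from -2.69 in ZI160 to -1.35 in ZI470), Rpt1 1.19 (from -1.39 in RAL307 to -0.21 in ZI160) and Rpt2 1.07 (from -1.63 in RAL307 to -0.56 in ZI050). At the other end, Prosbeta7 spanned 0.19 and Rpn2 0.24 log2 units. The separation of the particles itself was found in each line, since the median change of the core genes exceeded that of the regulatory genes by 1.80 (ZI160) to 2.26 (RAL360) log2 units. A test of the stage change with lines as the only replicates was also made, and the 16 falls stayed past the threshold there. Of the 20 rises 13 did, and Prosalpha1 (0.01, adjusted p = 0.896), Prosalpha2 (0.155, adjusted p = 0.011), Prosalpha4 (0.197, adjusted p = 0.0116), Prosalpha7 (0.01, adjusted p = 0.919), Rpn6, Prosalpha1R and Rpt6R did not.

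Between the populations at stage 2, none of the 34 members tested differed, beside 6.75% of 7566 genes. At an unadjusted p under 0.05 there were 3 members, and DESeq2's likelihood ratio test called 0. The canonical genes differed by -0.08 to 0.14 on the log2 scale (Zambia minus Raleigh). The largest of these was Rpn5, at 0.14 ± 0.04 (adjusted p = 0.026). The catalytic Prosbeta5 stood at -0.08 ± 0.04 (adjusted p = 0.15).

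At stage 5 the populations differed in 2 of 36 members, Rpt3 and the paralog Rpt6R, beside 13.3% of 10000 genes. Rpt3 encodes a base ATPase and lies on the X at 11125101 to 11126785. It had 42.0, 59.9 and 90.9 CPM (lowest, median and highest of 12 embryos) in Raleigh and 68.6, 94.6 and 252 CPM in Zambia. The embryos of ZI050, with 252, 219 and 199 CPM, stood far above all others, followed by ZI160 with 106, 96.1 and 98.5 CPM, and the Raleigh and Zambia ranges overlapped. At stage 2 the same gene had 205 to 244 CPM in Raleigh and 195 to 245 CPM in Zambia. The difference at stage 5 was 0.94 ± 0.21 (SE, adjusted p = 0.0020). Without ZI050 it was 0.47 (adjusted p = 0.00797). With the 3 embryos of each line summed, so that 4 lines were set against 4, it was 1.01 and no longer past the threshold (adjusted p = 0.27). Rpt3 was also the only member with a called interaction of stage and population, 0.95 ± 0.21 (adjusted p = 0.0020), beside 5.57% of all genes. That value was 0.51 without ZI050 (adjusted p = 0.0062) and 0.86 with the embryos summed (adjusted p = 0.47).

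**Figure D4:**
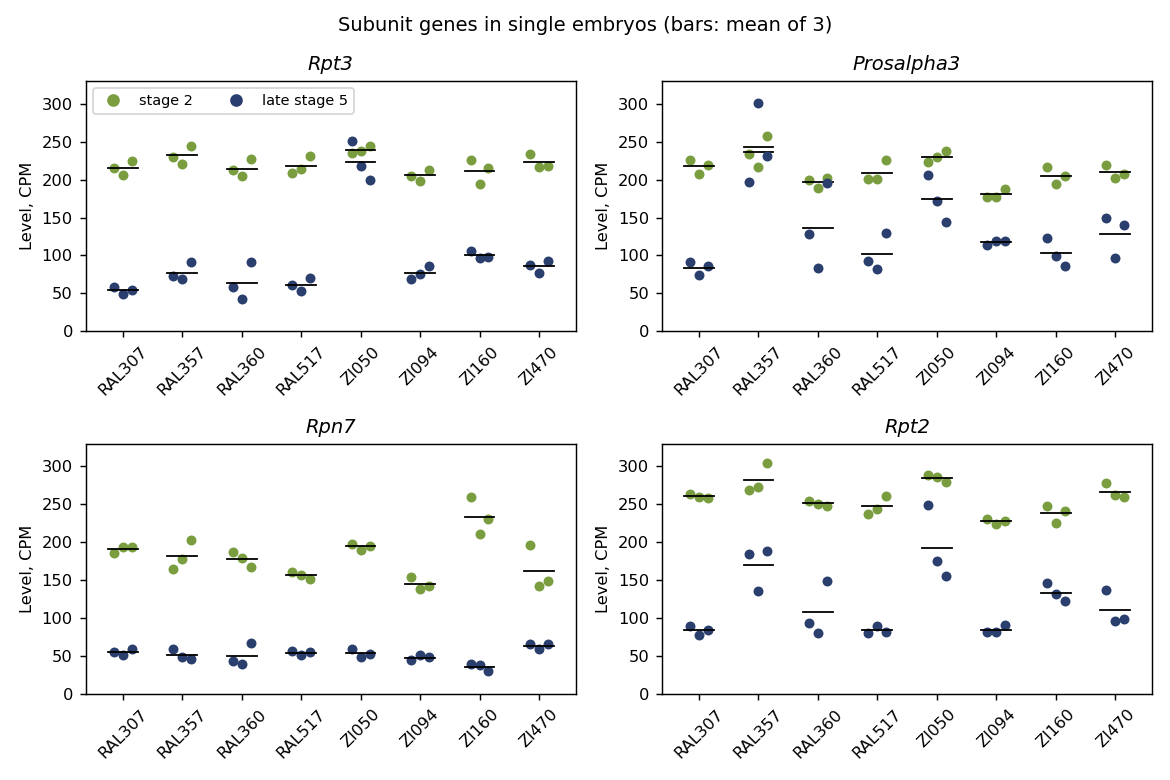
Level in CPM of 4 regulatory or core genes in each embryo, by line, at stage 2 and late stage 5, with bars for the mean of 3 embryos. Rpt3 of ZI050 kept 199 to 252 CPM at stage 5 while the other lines had 42.0 to 106 CPM, Prosalpha3 was highest in RAL357, Rpn7 was highest at stage 2 and lowest at stage 5 in ZI160, and Rpt2 was highest in ZI050.

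Rpt6R was counted too little to carry weight. All its embryos were under 1.27 CPM, and it had 34 counts at most in an embryo. Its difference of -1.89 ± 0.49 (adjusted p = 0.0059), lower in Zambia, was -1.27 without RAL357 (adjusted p = 0.061) and -1.85 with embryos summed (adjusted p = 0.31). Leaving out 1 embryo raised its adjusted p above 0.01 (0.011 to 0.018) for 8 of 24 embryos, so that 1 member was called. These were RAL357 embryos a and b, replicates 2 and 3 of ZI050, replicate 2 of ZI094, replicate 1 of ZI160 and replicates 2 and 3 of ZI470. Leaving out replicate 3 of RAL517 gave 3 members. Other members nearest to the threshold were Rpn1 (0.27 ± 0.08, adjusted p = 0.020), Prosbeta1 (-0.30 ± 0.11, adjusted p = 0.042) and Rpn10 (0.33 ± 0.12, adjusted p = 0.047).

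The next comparison was among the lines of a population. Among Raleigh lines at stage 2, 1 of 34 members was called, the paralog Rpt3R, beside 20.4% of all genes. None of the 32 canonical genes was called, and their median log2 ratio of the highest to the lowest line mean was 0.14, against 0.29 for all genes tested. Among Zambia lines at stage 2, 8 of 34 members were called, beside 16.8%, and the median ratio of the canonical genes was 0.28, against 0.29 (0.28 against 0.25 with 2 CPM added). The largest called canonical difference was Rpn7, with 234 CPM in ZI160 and 145 CPM in ZI094 (log2 ratio 0.69, adjusted p = 0.0038). Rpt6 (0.37, adjusted p = 0.0040) and Rpt4 (0.36, adjusted p = 0.0028) followed, both highest in ZI470 and lowest in ZI094. Without ZI470 replicate 1 their ratios were 0.33 and 0.34, both still past the threshold (adjusted p = 0.00133 and 0.00132). The order was not kept without that embryo. Rpn11 then had the largest ratio (0.80, ZI050 over ZI470, adjusted p = 1.15e-04), above Rpn7 (0.69). Rpn10 (0.43, adjusted p = 9.03e-04) and Rpn3 (0.40, adjusted p = 4.83e-04) came before Rpt6 and Rpt4.

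The count of 8 at stage 2 in Zambia depended on single embryos. Without ZI470 replicate 1, the embryo that stood apart, 22 members were called. It was 3, 4 and 5 without replicates 1, 2 and 3 of ZI050, and 3, 1 and 1 without those of ZI094. Without replicates 1 and 3 of ZI160 it was 14 and 4. The share of all genes called in these fits is not given here, so the counts are not read as particular to the members. ZI050 had the highest line mean of all 8 lines for 21 of the 32 canonical genes (65.6%), beside 14.1% of all genes tested, and ZI094 the lowest for 20 (62.5%), beside 14.8%. Their median deviations from the mean of 8 lines were 0.13 and -0.12 log2 units, small beside the stage changes.

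**Figure D5:**
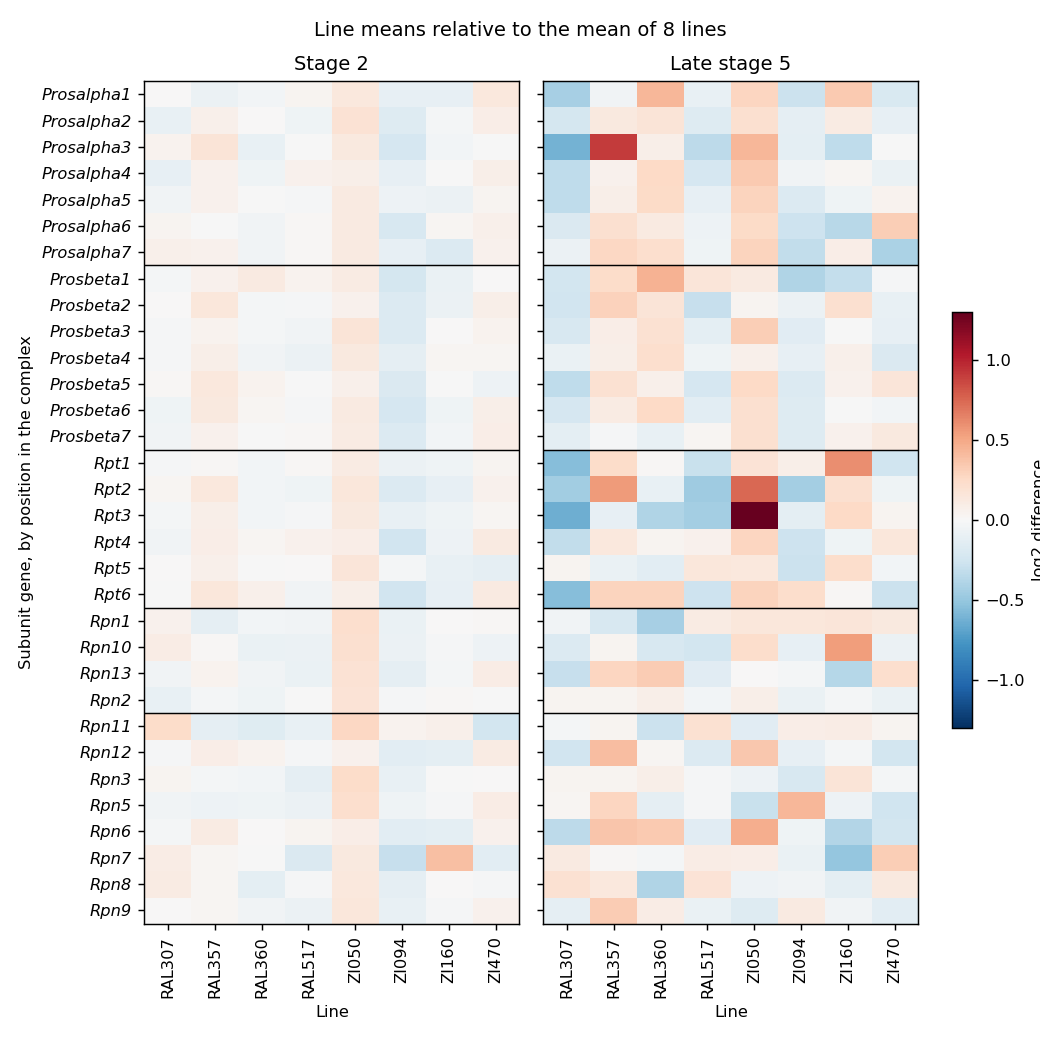
Log2 difference of each line mean from the mean of 8 lines for the 32 canonical genes (rows, by place in the complex) at stage 2 and late stage 5, from blue (lower) to red (higher). ZI050 is mostly above and ZI094 mostly below the mean at stage 2, and the strongest single cells at stage 5 are Rpt3 in ZI050 and Prosalpha3 in RAL357.

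At stage 5, 11 of 36 members differed among Raleigh lines, beside 24% of all genes, and 25 of 36 among Zambia lines, beside 47%. The median log2 ratio of the highest to the lowest line mean of the canonical genes was 0.50 in Raleigh and 0.51 in Zambia, against 0.63 and 0.61 for all genes tested. With 2 CPM added in place of 0.5 CPM the order turned, with 0.49 and 0.50 for the canonical genes against 0.46 and 0.45 for all genes, so no order is read from it. In Raleigh the largest called canonical ratios were Prosalpha3, with 242 CPM in RAL357 and 84.1 CPM in RAL307 (1.52, adjusted p = 9.25e-04), Rpt2, with 170 CPM in RAL357 and 83.9 CPM in RAL517 (1.01, adjusted p = 9.03e-04), and Prosalpha1, with 250.5 CPM in RAL360 and 138 CPM in RAL307 (0.86, adjusted p = 0.0058). In Zambia they were Rpt3, with 223 CPM in ZI050 and 76.5 CPM in ZI094 (1.54, adjusted p = 2.41e-07), Rpt2, with 193 CPM in ZI050 and 85.0 CPM in ZI094 (1.18, adjusted p = 3.43e-04), and Rpn6, with 450.5 CPM in ZI050 and 249 CPM in ZI160 (0.86, adjusted p = 3.81e-05). Without the shallow embryo of RAL360, the ratio of Prosalpha1 was 0.77 and no longer past the threshold (adjusted p = 0.013). Of the paralogs, Rpt3R had ratios of 1.98 in Raleigh (adjusted p = 0.0062; 1.49 without the shallow embryo, which had 0 counts, adjusted p = 0.0070) and 1.95 in Zambia, and Prosbeta2R2 one of 1.24 in Zambia (adjusted p = 0.0026), all from levels of 11.1 CPM or less. RAL307 had the lowest of the 8 line means for 13 of the 32 canonical genes (40.6%, beside 11.4% of all genes), and ZI050 the highest for 12 (37.5%, beside 13.1%). The Raleigh count was 4 to 14 when 1 embryo was left out. It was 6, 4 and 5 without replicates 1, 2 and 3 of RAL307 and 7 without RAL357 embryo b. It was 5 without replicate 1 of RAL360 and 6 without replicate 3 of RAL517. For these fits too, the share of all genes called is not given.

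The paralogs with an R or T suffix, several of which are known for expression in the testis, were all but silent, with the exception of Prosalpha1R and, at a low level, 3 others. Of the 16, 12 did not pass the filter on low counts and had at most 47 counts over all 48 embryos, and Prosbeta4R1 and Prosbeta4R2 had 0, which allows a level of up to 0.102 CPM in an embryo of median depth (3 counts). Prosbeta2R2 had 24 counts over the 24 embryos of stage 2 and 581 over those of stage 5. Its level was at most 0.158 CPM and then at most 3.08 CPM, highest in ZI050. Its rise of 4.83 ± 0.32 (adjusted p = 3.25e-17) rests on a stage 2 level near 0. Rpt3R had 0.34 to 14.6 CPM at stage 2 and up to 14.1 CPM at stage 5 (1.80 ± 0.14, adjusted p = 6.80e-15). ZI160 stood apart at stage 2 with 14.6, 5.91 and 5.48 CPM, where no embryo of another line exceeded 3.46 CPM, and in Zambia the lines differed at both stages (log2 ratios 3.31 and 1.95, adjusted p = 2.06e-04 and 1.65e-04). The 3 largest rises of all tested members between the stages were those of Prosbeta2R2, Rpt3R and Rpt6R (1.14 ± 0.41, adjusted p = 0.0089), from levels of 2.14 CPM or less. That of Rpt6R was not past the threshold in 31 of 48 fits with 1 embryo left out (0.91 to 1.62), nor with line sums (0.83, adjusted p = 0.17), total counts (0.91, adjusted p = 0.032), no filter (1.11, adjusted p = 0.0115) or RAL357 left out (0.95, adjusted p = 0.046).

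Prosalpha1R has a coding sequence of the same length as Prosalpha1 and lies 1734 bases from it on 2R. Its counts were 0.93 to 1.08 times those of Prosalpha1 in every embryo, and its stage change was 0.22 ± 0.04, as for Prosalpha1. How reads common to both copies were assigned is not given in the sources used here, so the values of either gene are uncertain, and the sum of the core genes takes Prosalpha1 alone.

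Other genes of the pathway were given by a list of 30, of which 27 were found in the table and tested. Between the stages 15 rose, 11 fell and 1 did not pass, beside 54.6% and 37.4% of all genes. The COP9 signalosome, a complex whose subunits are related to those of the lid and which removes Nedd8 from cullins, rose throughout: all 8 genes were higher at stage 5 in all 8 lines, by 1.00 (CSN3) to 1.46 (CSN8) on the log2 scale. Its metalloprotease CSN5 went from 68.9 ± 2.85 to 166 ± 24.7 CPM (SD, n = 8 line means; 1.26 ± 0.03), while Rpn11, the metalloprotease of the lid, went from 203 ± 26.4 to 63.7 ± 6.48 CPM. Sem1, the smallest lid subunit, which its symbol keeps outside the set, fell by 2.37 ± 0.04, from 97.1 ± 9.62 to 19.2 ± 6.92 CPM. The lid genes apart from Rpn6 and Rpn12 and the related signalosome thus moved apart.

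Pomp, the assembly chaperone of the core particle, rose by 0.86 ± 0.03, from 105 ± 9.23 to 193 ± 35.5 CPM, near the values of the beta ring. The activator REG rose by 0.33 ± 0.03. PI31 stood at 0.10 ± 0.04 (adjusted p = 0.011). Of enzymes bound to the regulatory particle, Uch-L5 rose by 0.71 ± 0.06 and Usp14 fell by 1.01 ± 0.03, and of the shuttle factors Ubqn rose by 0.11 ± 0.02, Rad23 by 0.19 ± 0.03 and rngo fell by 1.74 ± 0.04. All 3 genes listed for ubiquitin and its activation fell. They were Ubi-p63E (-4.19 ± 0.12, 3512 ± 674 to 244 ± 186 CPM), Ubi-p5E (-2.58 ± 0.11) and the activating enzyme Uba1 (-1.59 ± 0.04). Other sources of ubiquitin were not examined. Npl4 (-2.65 ± 0.04) and Ufd1 (-1.63 ± 0.04), cofactors of the segregase that hands substrates to the proteasome, fell as well. Of the genes that control subunit transcription, cnc (-1.85 ± 0.07) and Pngl (-2.37 ± 0.04) fell, and Keap1 (3.6 ± 0.08) and maf-S (1.39 ± 0.03) rose. The rises of Ubqn and Rad23, like those of Prosalpha1, Prosalpha7 and Rpn6, were smaller than the all-gene median of 0.62. Those of Prosalpha1, Prosalpha7 and Rpn6 turned negative with total counts. Ubqn and Rad23 on that scale are not given here, so their direction is not settled. Between the populations 0 of the 27 were called at stage 2, beside 6.75% of all genes tested. At stage 5 it was 3, beside 13.3%. Rad23 (0.39, adjusted p = 0.0028) and Keap1 (0.51, adjusted p = 0.0026) were higher in Zambia, and Npl4 (-0.43, adjusted p = 0.0031) was lower. In this test the embryos of each line count as replicates, and values with line sums are not given for these 3 genes.

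The 32 canonical genes are spread over the genome, with 10 on 2R, 9 on 3R, 5 on 3L, 4 on 2L and 4 on the X. The X held Prosalpha4, Rpt3, Rpt4 and Rpt6, whose stage changes ran in both directions (0.40, -1.42, 1.04 and -1.10). The sex of the embryos was fixed at stage 5 and unknown at stage 2, and its part in the change of these 4 genes cannot be told apart from the stage.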

How the data were processed

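Poly(A) RNA of single embryos was sequenced by the authors as paired reads, trimmed (Cutadapt) and aligned to the FlyBase reference genome by HISAT2, and featureCounts summed them per gene. The deposited values are counts per gene, not normalized, in 48 columns with 0 of other samples. The columns of RAL357 at each stage all carry the same replicate number. Its embryos cannot be told apart by name and are called a, b and c. Symbols, positions and exon lengths came from the BDGP6.54 annotation, in which 17343 genes matched. Embryos of a line are separate animals, and no pair differed by as little as sampling noise (chi-squared per degree of freedom at least 3.68).

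Counts were filtered (edgeR's filterByExpr, minimum count 10, minimum total 15), scaled by TMM and tested with edgeR 4.0.16 in R 4.3.3 (quasi-likelihood F-test, Benjamini-Hochberg adjusted p under 0.01). DESeq2 1.42.0 and Python 3.11.15 were also used. The stage change was fitted over 48 embryos with lines as terms, the population difference over 24 embryos of a stage, and line differences over 12. Log2 ratios of line means had 0.5 CPM added. Of the pairs of embryos with the same replicate number, 3 of 63 at stage 2 and 8 of 63 at stage 5 correlated above 0.1. Pairs of unlike number were not set beside them, so these counts cannot decide whether the numbers pair embryos. The steps were tested on simulated data: the stage test recovered 100 of 100 genes changed 2-fold over 10193 genes, with 3 false calls. The test of stage change among lines recovered 61 of 100, with 0 false calls. For the populations at stage 2 it was 100 with 4 false calls, for Zambia lines at stage 5 96 with 8, and for the interaction 98 with 1. The simulation gave every gene the same dispersion and no other line differences, so it is simpler than the data.

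Named genes were the 3 proteolytic subunits, Rpn10, Rpn11, members called in a population comparison or interaction, the 3 largest stage rises and falls, the 3 largest called line ratios, and paralogs above 1 CPM. Other exceptions named were chosen after their values were seen. The members and lists were chosen with earlier results of these data known. Alternatives were DESeq2's size factors and likelihood ratio test, no filter, an adjusted p under 0.05, total counts, line sums, cell means, a replicate block, other pseudocounts (0.1 and 2 CPM) and leaving out each embryo. Those without the embryos that stand apart, without ZI050, and with total counts outside the stage test were chosen after seeing the data. Ecm29, Ufd1-like and TER94 were not analysed here.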

Additional observations from a re-analysis of the deposited data

Results flagged for a closer look

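Effects that differed between groups under the same contrast were taken for a closer look. The stage change of Rpt3 was 0.948 log2 units higher in Zambia than in Raleigh, by the test of the interaction (edgeR, adjusted p = 0.0020), in which the 3 embryos of each line count as replicates. It was 0.51 without ZI050 (adjusted p = 0.0062) and 0.86 with the embryos of each line summed, not past the threshold (adjusted p = 0.47). Among the 8 lines, the stage change differed for 18 canonical genes. For those with the smallest adjusted p, the line with the highest change exceeded the line with the lowest by 1.89 log2 units in Rpt3 (ZI050 over RAL307), 1.34 in Rpn7 (ZI470 over ZI160), 0.994 in Rpn5 (ZI094 over ZI050), 0.698 in Rpn6 (ZI050 over RAL307) and 1.19 in Rpt1 (ZI160 over RAL307). Groups of 3 embryos were not searched for single far values.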

How the results depend on the processing

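Over all alternatives, the 16 falls between the stages stayed called. The number of rises, 20, was 13 with the embryos of each line summed. Some rises changed sign: with total counts Prosalpha1 was -0.0269, Prosalpha1R -0.0258, Prosalpha7 -0.0457 and Rpn6 -0.0764, and Rpn6 was -0.0426 with line sums; the cause was not tested. With an adjusted p under 0.05, the counts were 1 for the populations at stage 2 (0 at 0.01), 5 at stage 5 (2), 3 among Raleigh lines at stage 2 (1) and 22 at stage 5 (11), and 20 among Zambia lines at stage 2 (8). DESeq2's likelihood ratio test gave 2, 18 and 20 for these line comparisons. With lines summed, the population difference at stage 5 and the interaction had 0 member calls; with cell means the interaction had 3. Without both embryos that stand apart, 22 members differed among Zambia lines at stage 2, and with total counts 5. Shares of all genes called under these alternatives are not given here. The core to regulatory ratio without division by length was 0.6006 at stage 2 and 1.704 at stage 5.

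Whether replicate numbers pair embryos was not settled. With a replicate block, RAL357 left out, the population difference at stage 5 had 1 call and the Raleigh lines at stage 2 had 2, and the same embryos without the block had 1 and 1. With 1 embryo left out, counts were 35 to 36 for the stage change (19 to 20 rises, 16 falls), 17 to 24 for its difference among lines, 0 and 1 to 3 for the populations at stages 2 and 5, 1 for the interaction, 0 to 1 and 4 to 14 among Raleigh lines and 1 to 22 and 17 to 25 among Zambia lines. The shares of all genes called with 1 embryo left out are not given here. Depth limits the paralogs and RAL360 replicate 3 at stage 5, where 3 counts are 8.78 CPM.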
